A study of Homo sapiens with 15 samples.

Results

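The subject is 10 human genes of the ETS family of transcription factors: ETV1, ETV4 and ETV5, which form the PEA3 group, the ternary complex factors ELK1, ELK3 and ELK4, the founding members ETS1 and ETS2, the repressor ERF, and ELF1. They were chosen by name from the gene symbols of the deposited count table. All 10 were in the table of 15510 gene rows, and all 10 passed the filter on low counts that left 13599 genes for testing. Poly(A) RNA was sequenced from 5 cell lines in triplicate. The lines come from ARPE19, an established human line of the retinal pigment epithelium, and carry successive transforming constructs.

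RasV12 is ARPE19 transfected with 1 plasmid for hTERT, the catalytic subunit of telomerase, and p53DD, a dominant negative fragment of p53, with another for cyclin D1 and CDK4R24C, a CDK4 that resists its inhibitors, and with a plasmid for activated H-RasV12. The labels call it transformed. MekDD carries the same first plasmid pair and MEK-DD, an activated MEK, and is labelled weakly transformed. AKTmyr carries that pair and a myristoylated, HA-tagged Akt, which sits at the membrane and is active, and is labelled transformed. T53D4 carries the pair alone, and ARPE19 carries no construct. Both are labelled as not transformed. Each added oncogene is represented by 1 line, and the 3 libraries of a line came from separately thawed vials passaged 2 times, so the p-values below measure the spread between vials of a line and not between independently made lines.

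The libraries held 20.63 to 46.55 M reads on genes (M, 1e6 reads). The construct rows of the count table show each added oncogene in its own line: HRASV12 averaged 310 ± 30.4 CPM in RasV12 and 20.8 ± 3.69 CPM in T53D4, MEKDD averaged 753 ± 229 CPM in MekDD with 4 reads in all T53D4 libraries, and AKT averaged 840 ± 334 CPM in AKTmyr and 117 ± 16.0 CPM in T53D4 (SD, n = 3 each). CPM stands for counts per 1e6 reads on genes, scaled with TMM factors. In ARPE19, which carries no construct, HRASV12 averaged 20.7 CPM and AKT 104 CPM, so the T53D4 values of these rows lie near that baseline. The AKT construct row is named for a FLAG tag and not for the HA tag given above, a mismatch that was not resolved. The cyclin D1 and CDK4 plasmid does not follow the labels. CDK4R24C averaged 2380 CPM in RasV12, 142 CPM in MekDD, 1006 CPM in AKTmyr, 92.2 CPM in T53D4 and 70.7 CPM in ARPE19, so the libraries labelled MekDD and T53D4 lie near the line with no construct. "T53D4" and "MekDD" below mean the libraries with those labels. A comparison of RasV12 or AKTmyr with either therefore spans the cyclin D1 and CDK4 plasmid as well as the oncogene, and these cannot be told apart. Of the pigment epithelium markers, MITF averaged 83.3 CPM and OTX2 64.9 CPM in ARPE19, while RPE65 had 0 reads there. The summed level of the 11 such markers in the table, out of 12 listed, ranged from 856 to 1036 CPM in RasV12, 1121 to 1400 CPM in MekDD, 1333 to 2032 CPM in AKTmyr, 1584 to 1943 CPM in T53D4 and 2454 to 2528 CPM in ARPE19. Most of that sum was KRT8 and KRT18, keratins of simple epithelia in general, at 609.7 and 206 CPM in RasV12 and 1681 and 650.5 CPM in ARPE19. In RasV12 against T53D4 these keratins, MITF and PMEL were called lower, while OTX2 averaged 69.3 CPM in RasV12 and 64.4 CPM in T53D4 and was not called. BEST1 was called higher in RasV12, MekDD and AKTmyr, each against ARPE19, where it averaged 0.840 CPM. Its level was low in these lines as well, at 2.54, 2.36 and 2.09 CPM. T53D4 had a similar 2.45 CPM, and BEST1 was not called between T53D4 and any other line. Of 12 markers of other cell types 9 were in the table, and their sums ranged from 312 to 380 CPM in RasV12, 157 to 248 CPM in MekDD, 240.2 to 346 CPM in AKTmyr, 201 to 264 CPM in T53D4 and 217 to 305 CPM in ARPE19, nearly all of it CD68 and PDGFRB. The part of either marker list in the ETS results was not tested.

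ETS proteins share a DNA-binding domain that recognises a GGAA core, and many of them are end points of the RAS, RAF, MEK and ERK cascade. ERK phosphorylates the ternary complex factors, ETS1 and ETS2, and expels the repressor ERF from the nucleus. The PEA3 genes are controlled at the level of their RNA, where the repressor capicua (CIC) sits on their promoters until ERK signalling relieves it. They are also controlled at the level of protein, which the ubiquitin ligase COP1 with DET1 removes. In epithelial cells ETS factors act beside AP-1 on genes of proteases, growth control and migration.

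The PEA3 genes and ELK3 had the widest range between the lines. ETV4, ETV5, ETV1 and ELK3 were highest in RasV12 and lowest in AKTmyr, with MekDD in between and above T53D4. The ratio of the highest to the lowest line mean was 25.6 for ETV4, 8.70 for ETV5, 7.56 for ETV1 and 3.54 for ELK3. It was 2.34 for ETS2, 1.76 for ELF1, 1.57 for ELK1, 1.53 for ETS1, 1.26 for ERF and 1.24 for ELK4, where the median over all tested genes was 1.56. Per kilobase of exon, which allows genes to be compared with each other, the order of levels was different. Averaged over the 15 libraries, ETS1 (36.0 CPM per kb), ERF (34.2 CPM per kb) and ELK3 (29.7 CPM per kb) were the most abundant, at percentiles 91.7, 91.1 and 89.6 of the tested genes. ELK1 at 14.4, ETS2 at 11.9 and ELF1 at 8.61 CPM per kb came next. ETV5 at 6.95, ETV1 at 5.47, ELK4 at 3.56 and ETV4 at 2.55 CPM per kb were the lowest, and ETV4 stood at percentile 35.4. The members with the widest range between lines were thus, ELK3 apart, among those with the lowest levels.

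Differences between lines were tested with the quasi-likelihood test of edgeR, p-values were adjusted by the Benjamini-Hochberg method over all 13599 genes, and a gene was called where that adjusted p was under 0.05. Fold changes are log2 and positive where the line named first is higher. Against T53D4, RasV12 had 5 members higher (ETV4, ETV5, ETV1, ELK3 and ELK1) and 1 lower (ELF1), where 24.4% of all tested genes were called, 10.8% higher and 13.6% lower. The libraries of these lines did not overlap for 6 members and for 40.1% of all genes. MekDD had 2 members higher (ETV1 and ELK3) and none lower, where 5.10% of all genes were called, 2.27% higher and 2.83% lower, and 4 members and 24.0% of all genes did not overlap. The MekDD count was 4 with the replicate block or in DESeq2 and between 1 and 3 with 1 library left out, and the calls over all genes, 694 here, were 1589 with the block, 1127 in DESeq2 and 359 to 757 with 1 library left out. AKTmyr had 1 member higher (ETS2) and 4 lower (ETV4, ETV5, ETV1 and ETS1), where 20.1% of all genes were called, 9.91% higher and 10.2% lower, and 6 members and 35.5% of all genes did not overlap. With only these 2 lines fitted, 2 members were called in AKTmyr, and with 1 library left out 2 to 5. The median absolute log2 fold change of the 10 genes was 0.53 in RasV12, 0.29 in MekDD and 0.54 in AKTmyr, beside 0.29, 0.18 and 0.30 over all tested genes. T53D4 against ARPE19 had no member called by edgeR or by DESeq2, and none with an unadjusted p under 0.05 in edgeR, where 0.154% of all genes were called, 0.0368% higher and 0.118% lower. That share is 21 genes, and it was 232 genes with the block, 192 in DESeq2, 2 with the 2 lines alone and 1 to 35 with 1 library left out. There 2 members and 16.6% of all genes did not overlap. These 3 comparisons against T53D4 share its 3 libraries, so their values are given side by side and not as support for one another.

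**Figure D1:**
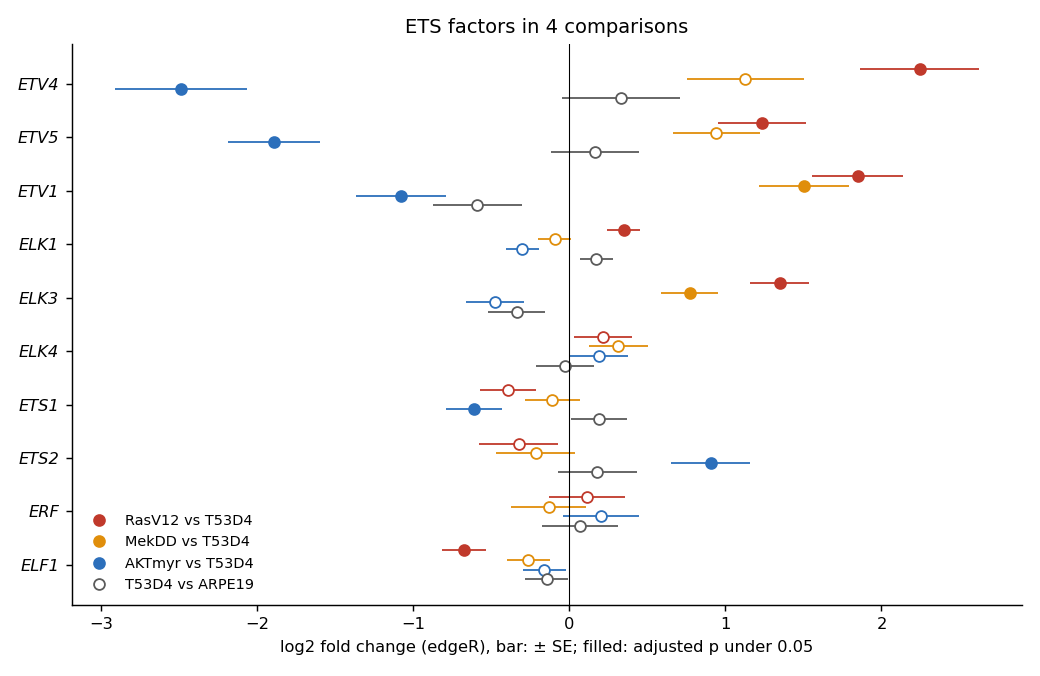
Log2 fold changes of the 10 ETS genes (x axis, edgeR fit, bars ± SE) in RasV12, MekDD and AKTmyr against T53D4 and in T53D4 against ARPE19; filled points have an adjusted p under 0.05. ETV4, ETV5 and ETV1 lie right of 0 in RasV12 and MekDD and left of 0 in AKTmyr, and no point of T53D4 against ARPE19 is filled.

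ETV4 (chr17:43527844-43579620, minus strand, hg38), the factor first described as PEA3, had 25.3, 26.9 and 19.5 CPM in the RasV12 libraries, 12.4, 12.6 and 7.99 CPM in MekDD, 0.378, 0.837 and 1.58 CPM in AKTmyr, 6.95, 3.88 and 4.29 CPM in T53D4 and 2.46, 4.69 and 4.87 CPM in ARPE19. Every RasV12 library lay above every MekDD library, every MekDD library above every T53D4 and ARPE19 library, and every AKTmyr library below all others, while T53D4 and ARPE19 overlapped. Against T53D4, ETV4 rose in RasV12 by 2.24 on the log2 scale (SE 0.38, edgeR adjusted p = 7.31e-04) and fell by 2.49 in AKTmyr (SE 0.42, edgeR adjusted p = 0.00157). In MekDD it differed by 1.13 on the log2 scale (SE 0.37) with an edgeR adjusted p of 0.109, although the libraries did not overlap. DESeq2 gave an adjusted p of 0.0382 for that difference. ETV4 shares 68 exon bases with DHX8 on the other strand, and whether reads were counted by strand is not given in the sources used here. DHX8 averaged 48.7 CPM in RasV12, 50.3 CPM in MekDD, 54.9 CPM in AKTmyr and 55.7 CPM in T53D4 and was not called in these comparisons.

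ETV5 (chr3:186046314-186110318, minus strand), also known as ERM, had 72.8, 88.1 and 59.1 CPM in RasV12, 67.7, 64.8 and 47.2 CPM in MekDD, 4.73, 10.2 and 10.4 CPM in AKTmyr, 35.2, 27.2 and 31.2 CPM in T53D4 and 18.5, 32.0 and 33.0 CPM in ARPE19. RasV12 and MekDD overlapped each other and lay wholly above T53D4 and ARPE19, and AKTmyr lay wholly below. Against T53D4, ETV5 rose by 1.24 in RasV12 on the log2 scale (SE 0.28, edgeR adjusted p = 0.00559) and fell by 1.89 in AKTmyr (SE 0.29, edgeR adjusted p = 8.86e-04). The MekDD difference of 0.94 (SE 0.28) missed the threshold with an edgeR adjusted p of 0.0734. It passed with the replicate number as a block (edgeR adjusted p = 0.0436), in DESeq2 (adjusted p = 0.0209), with these 2 lines fitted alone (edgeR adjusted p = 0.0220), and when replicate 1 of AKTmyr (edgeR adjusted p = 0.0224) or of ARPE19 (edgeR adjusted p = 0.0439) was left out. ETV5 shares 164 exon bases with DGKG on the same strand. DGKG had 74 reads in RasV12 and 0 in T53D4, against 7035 reads of ETV5 in RasV12.

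ETV1 (chr7:13891229-13991425, minus strand), also known as ER81, had 101.4, 104 and 95.8 CPM in RasV12, 64.2, 92.5 and 81.3 CPM in MekDD, 12.1, 10.7 and 17.1 CPM in AKTmyr, 15.1, 29.2 and 39.7 CPM in T53D4 and 31.5, 44.5 and 50.1 CPM in ARPE19. RasV12 and MekDD again lay above the other 3 lines, without overlap between them, while the highest AKTmyr library was above the lowest T53D4 library. Against T53D4, ETV1 rose by 1.85 in RasV12 on the log2 scale (SE 0.29, edgeR adjusted p = 4.21e-04) and by 1.51 in MekDD (SE 0.29, edgeR adjusted p = 0.00701). It fell by 1.08 in AKTmyr (SE 0.29, edgeR adjusted p = 0.0196). That last call was lost without replicate 1 or 2 of AKTmyr (edgeR adjusted p = 0.0752 and 0.0696) and without replicate 2 or 3 of T53D4 (edgeR adjusted p = 0.0525 and 0.0955), and was 0.0848 with these 2 lines fitted alone. As RNA was taken from whole cultures, fewer cells that express a gene and less RNA per cell cannot be told apart here or in any result below.

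The promoter of ETV1 is shown because capicua, the repressor described above, is known to bind the PEA3 genes at octamers of the kind searched here. The octamers were TGAATGAA, TCAATGAA, TGAATGGA and TCAATGGA on both strands, in RefSeq windows of 300 bases around gene starts (GRCh38.p14). Of the 10 genes 7 had a window there, 18 windows in all, and ETV1 alone had 6. ETV4, ETV5 and ETS1 were not matched. The octamer TGAATGGA was found in 1 of the ETV1 windows, beginning at position -125 relative to the start, where 3.77% of all 35116 windows held an octamer. The 250 bases before that start, chr7:13991426-13991675 on the minus strand, follow with the octamer in capitals.
ETV1: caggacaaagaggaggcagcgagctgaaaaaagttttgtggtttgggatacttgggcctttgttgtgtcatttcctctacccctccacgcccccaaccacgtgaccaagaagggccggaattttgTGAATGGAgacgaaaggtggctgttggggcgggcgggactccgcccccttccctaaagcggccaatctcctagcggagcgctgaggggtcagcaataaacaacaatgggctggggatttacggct
Among 15 ERK feedback genes and reported capicua targets, 12 had windows, 19 in all. An octamer was held by 4 of these windows, in DUSP6, SPRED3, VGF and MAFF. A match of letters is a description and shows no binding in these cells.

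**Figure D2:**
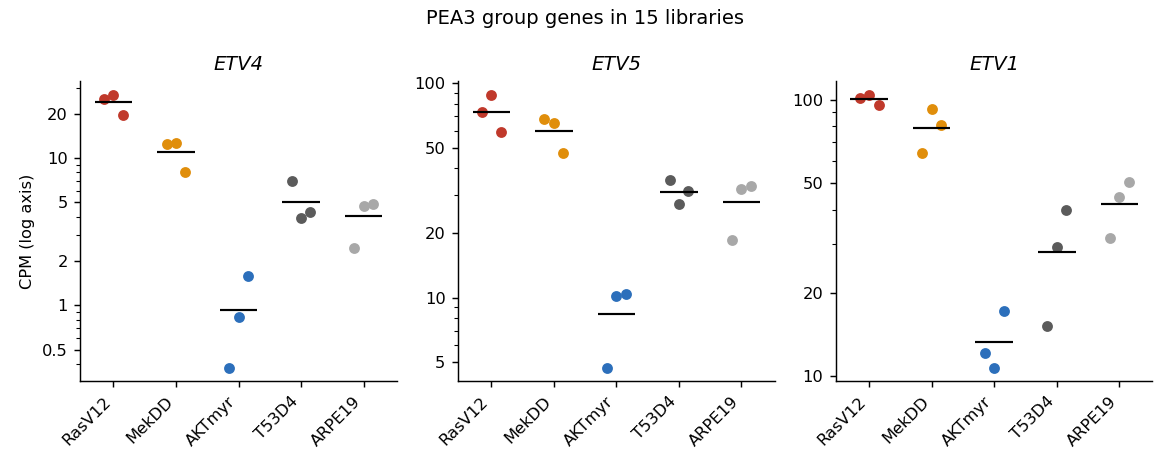
CPM on a log axis (y) of ETV4, ETV5 and ETV1 in the 3 libraries of each line (x); points are libraries and bars are line means. In each panel RasV12 has the highest mean and AKTmyr the lowest, with 23.9 and 0.933 CPM for ETV4.

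Set directly against AKTmyr, the PEA3 genes showed the largest differences of the 10. RasV12 against AKTmyr differed by 4.73 on the log2 scale for ETV4 (SE 0.44, edgeR adjusted p = 4.16e-06), by 3.13 for ETV5 (SE 0.30, edgeR adjusted p = 5.88e-06) and by 2.92 for ETV1 (SE 0.31, edgeR adjusted p = 9.88e-06). MekDD against AKTmyr differed by 3.62 for ETV4 (SE 0.43, edgeR adjusted p = 6.30e-05), by 2.83 for ETV5 (SE 0.30, edgeR adjusted p = 2.69e-05) and by 2.58 for ETV1 (SE 0.30, edgeR adjusted p = 5.53e-05). All 6 differences were called with any 1 library left out and under every processing alternative. In RasV12 against AKTmyr 5 members were higher and 2 lower, where 40.4% of all tested genes were called, 19.6% higher and 20.7% lower, and 7 members and 48.4% of all genes did not overlap. In MekDD against AKTmyr 4 were higher and 1 lower, where 26.2% were called, 12.7% higher and 13.5% lower, and 6 members and 39.5% of all genes did not overlap.

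RasV12 and MekDD were separated less clearly by the PEA3 genes. ETV4 was 1.12 higher in RasV12 than in MekDD on the log2 scale (SE 0.37), with an edgeR adjusted p of 0.0541, which became 0.0347 with the replicate number as a block. DESeq2 gave an adjusted p of 0.0168, and edgeR with these 2 lines alone one of 0.0112. The edgeR adjusted p was also under the threshold without replicate 1 of AKTmyr (0.0230), replicate 3 of AKTmyr (0.0265), replicate 1 of T53D4 (0.0446) or replicate 1 of ARPE19 (0.0361). ETV5 and ETV1 differed by 0.29 (SE 0.28, edgeR adjusted p = 0.545) and 0.34 (SE 0.28, edgeR adjusted p = 0.475), and their libraries overlapped for ETV5 but not for ETV1. Only ELK1 and ELK3 were called in this comparison, both higher in RasV12, where 15.5% of all tested genes were called, 7.17% higher and 8.33% lower. In that comparison 4 members and 34.3% of all genes did not overlap.

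Against untransfected ARPE19, RasV12 had 5 members higher and 1 lower, where 30.7% of all genes were called, 14.4% higher and 16.2% lower, and 6 members and 44.2% of all genes did not overlap. ETV4 was higher by 2.58 on the log2 scale (SE 0.39, edgeR adjusted p = 2.59e-04), ETV5 by 1.40 (SE 0.28, edgeR adjusted p = 0.00219) and ETV1 by 1.26 (SE 0.29, edgeR adjusted p = 0.00461). MekDD had 2 members higher, ETV4 by 1.46 (SE 0.38, edgeR adjusted p = 0.0252) and ETV5 by 1.11 (SE 0.28, edgeR adjusted p = 0.0237), where 10.9% of all genes were called, 4.61% higher and 6.27% lower. In MekDD 4 members and 30.7% of all genes did not overlap with ARPE19. Both MekDD calls were lost without replicate 1 or 2 of MekDD (ETV4 edgeR adjusted p = 0.0792 and 0.0876, ETV5 0.0812 and 0.0808) or replicate 1 of ARPE19 (0.102 and 0.0975). Without replicate 2 of ARPE19, ETV4 had an edgeR adjusted p of 0.0596 and ETV5 one of 0.05004, just above the threshold. ETV1 was 0.92 higher in MekDD (SE 0.28, edgeR adjusted p = 0.0547, 0.00999 with the replicate block and 0.0374 with the 2 lines alone, and DESeq2 adjusted p = 0.0216), and its edgeR adjusted p fell under the threshold without replicate 3 of AKTmyr (0.0459), replicate 1 of T53D4 (0.0148) or replicate 3 of T53D4 (0.0362). AKTmyr had 1 member higher and 4 lower, where 16.8% of all genes were called, 7.98% higher and 8.86% lower, and 6 members and 31.9% of all genes did not overlap. The lower ones were ETV4 by 2.15 on the log2 scale, ETV5 by 1.73, ETV1 by 1.67 and ELK3 by 0.81, with edgeR adjusted p values of 0.00369, 0.00154, 0.00205 and 0.00912.

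The neighbours in each PEA3 order of levels were not all separable. For ETV4 and ETV5 the order was RasV12, MekDD, T53D4, ARPE19 and AKTmyr, and for ETV1 ARPE19 stood before T53D4. In the fit without a block, AKTmyr was the only line called against its neighbour in all 3 genes. RasV12 against MekDD, MekDD against the next line and T53D4 against ARPE19 were not called there. With the replicate block, edgeR also called RasV12 against MekDD for ETV4 (adjusted p = 0.0347). It likewise called MekDD against T53D4 for ETV5 (0.0436) and against ARPE19 for ETV1 (0.00999). The ETV1 call in AKTmyr against T53D4 was lost with these lines fitted alone (edgeR adjusted p = 0.0848) and in 4 fits with 1 library left out. For T53D4 against ARPE19 the log2 differences were 0.33 (SE 0.38) for ETV4, 0.16 (SE 0.28) for ETV5 and -0.59 (SE 0.29) for ETV1, with edgeR adjusted p values of 0.822, 0.900 and 0.489.

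ETV4 and ETV5 varied together from library to library, while ETV1 followed them between lines but less closely within lines. Over the 15 libraries, which share 5 lines, Pearson's r of log2 CPM was 0.98 between ETV4 and ETV5, 0.88 between ETV4 and ETV1 and 0.89 between ETV5 and ETV1. After the line means were taken out, r was 0.91 between ETV4 and ETV5, 0.12 between ETV4 and ETV1 and 0.17 between ETV5 and ETV1. In T53D4 replicate 1, for example, ETV4 and ETV5 were at their highest among the 3 libraries (6.95 and 35.2 CPM) while ETV1 was at its lowest (15.1 CPM). In RasV12 and in ARPE19, by contrast, all 3 genes ranked the libraries in the same order. These correlations describe these libraries and carry no p.

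**Figure D3:**
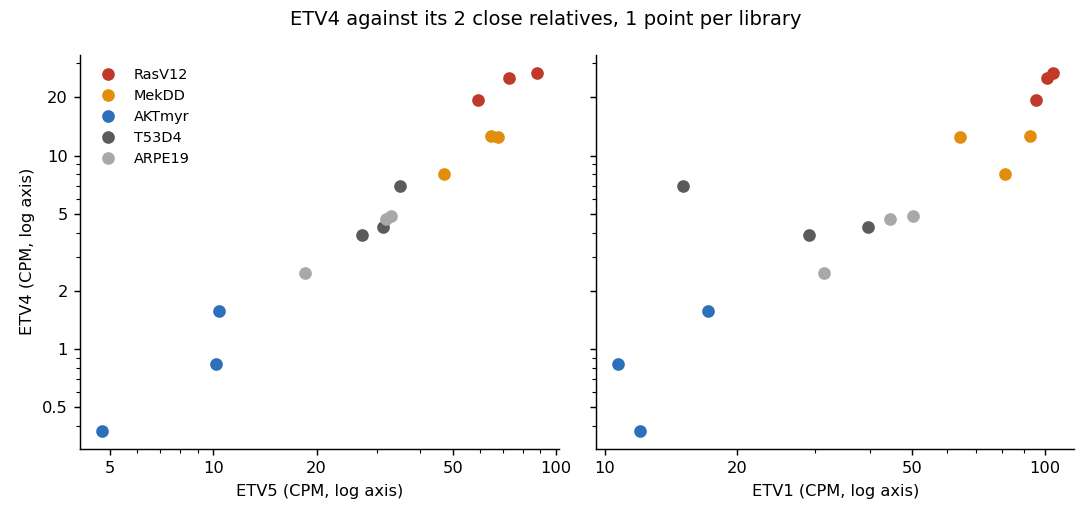
ETV4 (y, CPM, log axis) against ETV5 (left) and ETV1 (right), 1 point per library, coloured by line. The ETV5 panel follows a single band also within lines, while in the ETV1 panel the T53D4 libraries spread across it, from 15.1 to 39.7 CPM of ETV1.

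By the same measure, the genes most like ETV4 among 10637 candidates averaging 5 CPM or more were MFSD2B (r 0.98), HMGA1 (0.97), YARS2 (0.97), EEF1B2 (0.97) and MTAP (0.96), over 15 libraries. For ETV5 they were MFSD2B (0.98), GLDC (0.97), HMGA1 (0.97), SMAGP (0.97) and YARS2 (0.97), so that MFSD2B, HMGA1 and YARS2 stood in both lists. HMGA1 encodes a chromatin protein that bends AT-rich DNA, and YARS2 the mitochondrial tyrosine tRNA synthetase. For ETV1 they were NRG2 (0.98), a ligand of ERBB receptors, PDP1 (0.98), SOCS6 (0.97), MAST4 (0.95) and HMGA2 (0.95), and none of these was in the other lists. Within lines, r lay between 0.52 (MTAP) and 0.92 (YARS2) for the genes named with ETV4, between 0.65 (SMAGP) and 0.93 (YARS2) for those named with ETV5, and between 0.63 (MAST4) and 0.94 (PDP1) for those named with ETV1.

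The make-up of the ETS pool moved with the PEA3 genes. Of the summed level of the 10 genes in CPM per kb, the PEA3 group made up 15.9% ± 1.79 in RasV12, 13.6% ± 2.16 in MekDD, 2.49% ± 1.02 in AKTmyr, 6.86% ± 1.36 in T53D4 and 7.29% ± 2.03 in ARPE19 (SD, n = 3 each). The lowest MekDD library, at 11.3%, was above the highest library of ARPE19, at 8.70%, and the highest AKTmyr library, at 3.53%, was below the lowest of the other lines. The summed level itself was 188 ± 10.1 CPM per kb in RasV12, 162 ± 28.6 in MekDD, 129 ± 15.7 in AKTmyr, 145 ± 24.4 in T53D4 and 142 ± 2.31 in ARPE19. Within the PEA3 group, ETV4 held 22.6% ± 1.08 in RasV12, 14.3% ± 2.06 in MekDD, 7.92% ± 3.13 in AKTmyr, 14.8% ± 5.001 in T53D4 and 10.9% ± 0.975 in ARPE19. ETV5 was the largest part in RasV12, MekDD, T53D4 and ARPE19, at 42.2% to 55.6%, and about level with ETV1 in AKTmyr (46.3% ± 9.62 and 45.8% ± 11.0).

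**Figure D4:**
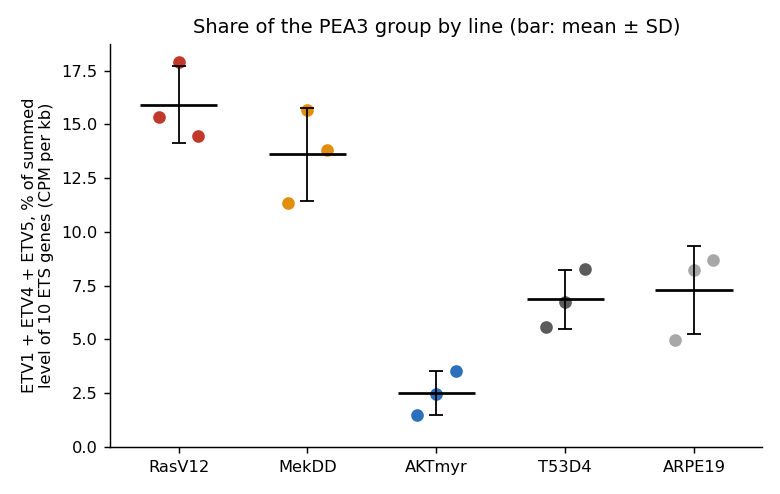
Share (y, %) of ETV1, ETV4 and ETV5 in the summed CPM per kb of the 10 ETS genes, by line (x); points are libraries, bars mean ± SD. The RasV12 and MekDD libraries lie at 11.3% or more and the AKTmyr libraries at 3.53% or less.

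The ternary complex factors bind serum response elements together with SRF and are direct ERK substrates. ELK3 (chr12:96194375-96269824, plus strand), also called NET, represses in its resting state and activates after phosphorylation. It had 283, 241 and 205 CPM in RasV12, 207, 158 and 123 CPM in MekDD, 72.6, 61.0 and 72.2 CPM in AKTmyr, 111, 78.8 and 96.7 CPM in T53D4 and 115, 117 and 129 CPM in ARPE19. All MekDD libraries lay above all T53D4 libraries, all AKTmyr libraries below them, and RasV12 and MekDD overlapped at 205 and 207 CPM. Against T53D4, ELK3 rose by 1.35 on the log2 scale in RasV12 (SE 0.19, edgeR adjusted p = 1.46e-04) and by 0.77 in MekDD (SE 0.18, edgeR adjusted p = 0.0262). In AKTmyr it differed by -0.48 (SE 0.18, edgeR adjusted p = 0.0831, and 0.0315 with the replicate block). RasV12 was higher by 0.58 than MekDD (SE 0.18, edgeR adjusted p = 0.0485) and by 1.82 than AKTmyr (SE 0.19, edgeR adjusted p = 9.32e-06), and MekDD was higher by 1.25 than AKTmyr (SE 0.19, edgeR adjusted p = 3.75e-04).

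Some of these ELK3 calls depended on single libraries. MekDD against T53D4 had an edgeR adjusted p of 0.128 without replicate 1 of MekDD, 0.0649 without replicate 2 of MekDD, 0.124 without replicate 2 of T53D4, 0.0748 without replicate 3 of T53D4 and 0.0864 with these 2 lines fitted alone. RasV12 against MekDD, close to the threshold, was lost in 10 of the 15 fits with 1 library left out. Its edgeR adjusted p was 0.155 and 0.109 without replicates 1 and 2 of RasV12, 0.119 and 0.192 without replicates 2 and 3 of MekDD, and between 0.0506 and 0.0655 without replicate 2 or 3 of AKTmyr, replicate 3 of T53D4 or any replicate of ARPE19. With these 2 lines fitted alone it was 0.101. ELK3 against ARPE19 was higher by 1.01 in RasV12 (SE 0.18, edgeR adjusted p = 0.00109) and differed by 0.44 in MekDD (SE 0.18, edgeR adjusted p = 0.152).

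ELK1 (X chromosome, 47635521 to 47650604, minus strand) is the best studied ERK target of the family. It had 62.2, 62.3 and 65.3 CPM in RasV12, 50.5, 47.4 and 41.9 CPM in MekDD, 36.7, 39.8 and 44.6 CPM in AKTmyr, 52.6, 48.2 and 48.3 CPM in T53D4 and 44.4, 40.9 and 47.1 CPM in ARPE19. RasV12 stood above every other library, and the other 4 lines lay between 36.7 and 52.6 CPM. The differences were small: 0.35 on the log2 scale against T53D4 (SE 0.11, edgeR adjusted p = 0.0270), 0.44 against MekDD (SE 0.11, edgeR adjusted p = 0.0117), 0.65 against AKTmyr (SE 0.11, edgeR adjusted p = 3.42e-04) and 0.52 against ARPE19 (SE 0.11, edgeR adjusted p = 0.00221). The first was lost without replicate 2 or 3 of RasV12 (edgeR adjusted p = 0.0586 and 0.0747) or replicate 2 or 3 of T53D4 (0.0860 and 0.0840), and the second without replicate 3 of MekDD (0.0604). AKTmyr differed from T53D4 by -0.30 (SE 0.11, edgeR adjusted p = 0.0588), which became 0.0346 with the replicate block and 0.0350 without replicate 3 of AKTmyr, and DESeq2 gave 0.0358.

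ELK4 (chr1:205597556-205631962, minus strand), also called SAP-1, was the flattest of the 10 genes. It had 51.0, 38.2 and 46.1 CPM in RasV12, 53.5, 39.2 and 52.5 CPM in MekDD, 50.3, 38.3 and 44.3 CPM in AKTmyr, 47.4, 29.6 and 39.7 CPM in T53D4 and 41.8, 33.7 and 43.4 CPM in ARPE19. The lines overlapped throughout, and replicate 2 was the lowest library of every line. No comparison was called in the fit without a block. With the replicate number as a block, MekDD was higher by 0.32 than T53D4 (edgeR adjusted p = 0.0319) and by 0.28 than ARPE19 (edgeR adjusted p = 0.0366). Its start region is shown as the counterpart to that of ETV1: of the 18 windows of the 10 genes, it was the only one with the high-affinity ETS sequence CCGGAAGT on either strand, which 4.14% of all windows held. The 100 bases before the start, chr1:205632012-205632111 on the minus strand, follow with the match in capitals, beginning at position -22.
ELK4: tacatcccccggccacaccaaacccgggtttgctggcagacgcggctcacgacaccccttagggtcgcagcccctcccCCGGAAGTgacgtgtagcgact
No window of the 10 genes held a CArG box, the SRF sequence that ternary complex factors accompany, where 1.29% of all windows did.

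ETS1 (chr11:128458761-128587558, minus strand), an activator known for its part in endothelial, lymphoid and invasive cells, had 220.0, 214 and 262 CPM in RasV12, 354, 249.7 and 244 CPM in MekDD, 191, 218 and 189.6 CPM in AKTmyr, 384, 269.8 and 260.3 CPM in T53D4 and 237, 276 and 287 CPM in ARPE19. AKTmyr lay below all T53D4 and ARPE19 libraries, and RasV12 overlapped T53D4. ETS1 fell by 0.61 on the log2 scale in AKTmyr against T53D4 (SE 0.18, edgeR adjusted p = 0.0272). That call was lost without replicate 1 or 3 of AKTmyr (edgeR adjusted p = 0.0926 and 0.0662), without replicate 1 of T53D4 (0.122), and with these 2 lines fitted alone (0.0738). RasV12 differed from T53D4 by -0.39 (SE 0.18, edgeR adjusted p = 0.128) and MekDD by -0.11 (SE 0.18, edgeR adjusted p = 0.847). MekDD differed from AKTmyr by 0.50 (SE 0.18, edgeR adjusted p = 0.0509), which became 0.0386 with the replicate block, 0.0451 without replicate 3 of MekDD and 0.0285 without replicate 1 of T53D4, and DESeq2 gave 0.0342.

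ETS2 (chr21:38805183-38824955, plus strand), the nearest relative of ETS1, was the only member called higher in AKTmyr against T53D4 or ARPE19. It had 46.98, 45.01 and 38.5 CPM in RasV12, 65.3, 43.1 and 32.3 CPM in MekDD, 139, 86.9 and 80.3 CPM in AKTmyr, 68.0, 50.4 and 44.95 CPM in T53D4 and 54.8, 46.2 and 43.2 CPM in ARPE19. Every AKTmyr library lay above every library of the other lines, which overlapped one another. ETS2 rose in AKTmyr by 0.91 on the log2 scale against T53D4 (SE 0.25, edgeR adjusted p = 0.0230) and by 1.09 against ARPE19 (SE 0.25, edgeR adjusted p = 0.0107). RasV12 was lower than AKTmyr by 1.23 (SE 0.26, edgeR adjusted p = 0.00192) and MekDD by 1.12 (SE 0.26, edgeR adjusted p = 0.00617). Replicate 1 of AKTmyr, at 139 CPM, had the highest value: without it the edgeR adjusted p was 0.112 against T53D4 and 0.0502 against ARPE19. The T53D4 comparison also lost its call without replicate 2 or 3 of T53D4 (0.0749 and 0.0894) and with these 2 lines fitted alone (0.0546).

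ERF (chr19:42247569-42255128, minus strand), a repressor that ERK sends out of the nucleus, was called in no comparison. It had 126, 118 and 112 CPM in RasV12, 122, 91.0 and 86.5 CPM in MekDD, 163, 129 and 86.9 CPM in AKTmyr, 145, 97.5 and 86.6 CPM in T53D4 and 132, 96.1 and 85.2 CPM in ARPE19. The lines overlapped throughout, the range within each line except RasV12 was wider than the range of the line means, and replicate 1 was the highest library of all 5 lines, as it was for ETS2. Within lines ERF and ETS2 correlated with an r of 0.86 over the 15 libraries. Against T53D4 the log2 differences of ERF were 0.11 in RasV12 (SE 0.24), -0.13 in MekDD (SE 0.24) and 0.21 in AKTmyr (SE 0.24), with edgeR adjusted p values of 0.791, 0.866 and 0.584. A gene model on the same strand, AC006486.1, shares 151 exon bases with ERF and was not analysed here.

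ELF1 (chr13:40931924-41061440, minus strand), a broadly expressed activator of another branch of the family, had its lowest mean in RasV12 and its highest in ARPE19. It had 24.3, 28.4 and 27.9 CPM in RasV12, 32.8, 39.6 and 34.9 CPM in MekDD, 36.8, 40.4 and 37.9 CPM in AKTmyr, 38.2, 50.8 and 39.6 CPM in T53D4 and 51.5, 50.7 and 39.9 CPM in ARPE19. RasV12 lay below every other library, MekDD lay wholly below ARPE19, and the remaining lines overlapped their neighbours. ELF1 fell in RasV12 by 0.67 on the log2 scale against T53D4 (SE 0.14, edgeR adjusted p = 0.00275), by 0.51 against AKTmyr (SE 0.14, edgeR adjusted p = 0.00915) and by 0.82 against ARPE19 (SE 0.14, edgeR adjusted p = 6.40e-04). Against MekDD the difference was -0.41 (SE 0.14, edgeR adjusted p = 0.0599), which became 0.0148 with the replicate block, 0.0422 without replicate 2 of T53D4 and 0.0454 without replicate 3 of ARPE19, and DESeq2 gave 0.0371. Against ARPE19, MekDD differed by -0.41 (SE 0.14, edgeR adjusted p = 0.0738, 0.0175 with the block, 0.0320 without replicate 3 of ARPE19 and 0.0312 in DESeq2) and AKTmyr by -0.30 (SE 0.14, edgeR adjusted p = 0.150 and 0.0496 with the block).

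**Figure D5:**
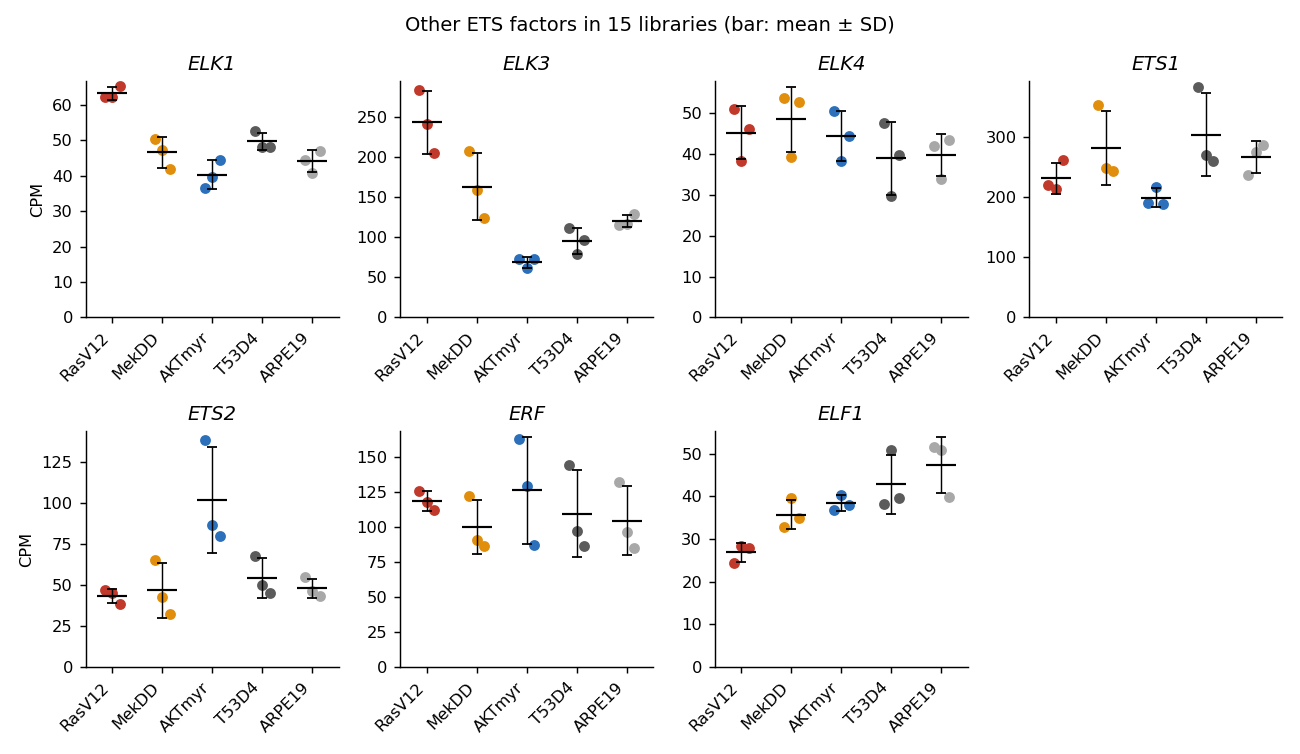
CPM (y, linear axis from 0) of the 7 ETS genes outside the PEA3 group in the 3 libraries of each line (x); points are libraries, bars mean ± SD. ELK3 and ELK1 are highest in RasV12, ETS2 is highest in AKTmyr at 80.3 to 139 CPM, ELF1 is lowest in RasV12, and ELK4 and ERF overlap throughout.

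Genes that act on the PEA3 group or beside ETS factors were called about as often as genes in general. Of 15 regulators and partners, 2 were higher and 3 lower in RasV12 against T53D4 (median log2 -0.013, beside 0.0073 over all tested genes), 1 was higher in MekDD (median -0.037, beside 0.0030) and 2 were higher and 1 lower in AKTmyr (median -0.021, beside -0.011). These are 5, 1 and 3 of 15 genes, where 24.4%, 5.10% and 20.1% of all tested genes were called. TRIB1 and TRIB2, scaffolds that bring COP1 to its substrates, rose in RasV12 by 1.62 (SE 0.24, edgeR adjusted p = 2.45e-04) and 0.89 (SE 0.20, edgeR adjusted p = 0.00545) on the log2 scale. TRIB2 also rose in MekDD by 0.88 (SE 0.20, edgeR adjusted p = 0.0212). CREBBP, a histone acetylase that ETS factors recruit, fell in RasV12 by 0.66 (SE 0.17, edgeR adjusted p = 0.0112). ATXN1L and SRF also fell there, by 0.46 and 0.40 (edgeR adjusted p = 0.00437 and 0.0308), and are named after their values were seen. ATXN1, a cofactor of capicua, rose in AKTmyr by 0.94 (SE 0.14, edgeR adjusted p = 6.64e-04) with 56.3 CPM in AKTmyr and 29.3 CPM in T53D4. USP9X rose there by 0.37 (SE 0.11, edgeR adjusted p = 0.0312) and SRF fell by 0.38 (SE 0.12, edgeR adjusted p = 0.0447). The count of lower genes in AKTmyr was 0 with median-of-ratios factors, without the filter or with the 2 lines alone and 2 with the block, and that of higher genes was 1 with the 2 lines alone. The RNA of CIC itself, singled out after its values were seen, averaged 104 CPM in RasV12, 105 CPM in MekDD, 147 CPM in AKTmyr, 115 CPM in T53D4 and 133 CPM in ARPE19 and was not called against T53D4.

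In the rest of the ETS family, most edgeR calls against T53D4 were in RasV12. Of 18 further family genes 11 were in the table and 10 were tested, of which RasV12 against T53D4 had 1 higher (2 without the filter) and 4 lower (median log2 -0.091), MekDD 1 lower (median -0.12) and AKTmyr none called by edgeR (median 0.15), with 1 lower in DESeq2 and 2 lower with the block. In MekDD 1 was higher in DESeq2, with the block or with the 2 lines alone, which also had 2 lower. Of all tested genes, edgeR called 24.4% in RasV12, 5.10% in MekDD and 20.1% in AKTmyr. ELF3, an ETS factor of epithelial cells, had 0.376 ± 0.355 CPM in RasV12 and 27.8 CPM in T53D4, a fall of 6.41 on the log2 scale (SE 0.85, edgeR adjusted p = 1.04e-04). Its close relative EHF had 5.36 ± 5.68 CPM in RasV12, a spread as wide as its mean, and 0.119 CPM in T53D4, a rise of 5.31 (SE 0.82, edgeR adjusted p = 3.45e-04). ETV7 fell in RasV12 by 1.72 (SE 0.56, edgeR adjusted p = 0.0396) at levels under 1 CPM. The other lower genes in RasV12, FLI1 and ELF4, are named after their values were seen. FLI1 had 0 reads in MekDD and 74 reads in T53D4, so it was at least 24.4-fold lower in MekDD, with 3 reads over a line's libraries as the floor.

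The 15 feedback inhibitors of ERK signalling and reported capicua targets were mostly called higher in RasV12 and lower in AKTmyr. RasV12 against T53D4 had 13 higher and none lower (median log2 2.07), MekDD had 7 higher and none lower (median 0.92, and 11 higher with the replicate block), and AKTmyr had none higher and 10 lower (median -0.88), with 1 higher under the block. Over all tested genes the shares called were 24.4%, 5.10% and 20.1% in these comparisons, with median log2 values of 0.0073, 0.0030 and -0.011. DUSP6, the phosphatase of ERK, averaged 351 ± 50.5 CPM in RasV12, 84.6 ± 12.5 CPM in MekDD, 3.83 ± 0.611 CPM in AKTmyr and 6.996 CPM in T53D4. That is a log2 rise of 5.65 in RasV12 (SE 0.22, edgeR adjusted p = 3.48e-09) and of 3.597 in MekDD (SE 0.20, edgeR adjusted p = 3.85e-07). SPRY4, a Sprouty inhibitor upstream of RAF, averaged 111 ± 33.7 CPM in RasV12, 31.0 ± 5.79 CPM in MekDD, 0.548 ± 0.219 CPM in AKTmyr and 2.81 CPM in T53D4. It rose by 5.28 and 3.44 in RasV12 and MekDD and fell by 2.30 in AKTmyr, with edgeR adjusted p values of 7.01e-07, 6.13e-05 and 0.00258. The phosphatases DUSP4 and DUSP5 fell in AKTmyr by 2.13 and 2.18 (edgeR adjusted p = 4.02e-04 and 3.84e-04). VGF had 45 reads in RasV12, 17 in MekDD and 0 in T53D4, at least 15.7-fold and 5.74-fold higher. With VGF at these bounds the medians of the list stay as they are, since the bounds lie above them.

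Immediate early genes with ELK and SRF sites included called genes in all 3 oncogene lines. Of 12, RasV12 against T53D4 had 6 higher and none lower (median log2 1.62), MekDD 2 higher (median 0.18, and 4 higher with the block but 1 with the 2 lines alone) and AKTmyr 1 higher and 2 lower (median -0.022, and 0 higher and 1 lower with the 2 lines alone). The shares of all tested genes called were 24.4%, 5.10% and 20.1%, and the difference between the lines in these counts was not tested. The zinc finger gene EGR1 averaged 52.2 ± 29.1 CPM in RasV12 and 7.46 CPM in T53D4, a rise of 2.80 on the log2 scale (SE 0.78, edgeR adjusted p = 0.0175), with replicates far apart. EGR2, at 0.109 CPM in T53D4, rose by 4.05 in RasV12, 1.95 in MekDD and 1.61 in AKTmyr (edgeR adjusted p = 2.23e-05, 0.0283 and 0.0294). EGR3 had 41 reads in RasV12, 54 in MekDD and 2 in T53D4, a ratio of CPM of 21.5 (95% exact binomial interval 5.58 to 183) in RasV12 and 27.3 (7.21 to 232) in MekDD, intervals that cover counting error only. In AKTmyr, FOSB fell by 1.61 (edgeR adjusted p = 0.00608) and NR4A1 by 0.86 (edgeR adjusted p = 0.0327).

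Most genes of a protease list with reported ETS and AP-1 sites were called higher in RasV12. The list also holds TIMP1, a protease inhibitor, and PLAUR, the urokinase receptor, both among the higher genes and named after their values were seen. Of 11 listed 10 were in the table and 8 were tested, with 7 higher and 1 lower in RasV12 against T53D4 (median log2 2.80), 3 higher and 1 lower in MekDD (median 1.17, and 5 higher with the block or in DESeq2) and 1 higher in AKTmyr (median 0.046, with 2 higher without the filter and 1 lower with the block). Over all tested genes the shares called were 24.4%, 5.10% and 20.1%, with median log2 values of 0.0073, 0.0030 and -0.011. The collagenase gene MMP1 averaged 3497 ± 1482 CPM in RasV12, 87.9 ± 64.3 CPM in MekDD, 0.243 ± 0.216 CPM in AKTmyr and 0.342 CPM in T53D4. The stromelysin gene MMP3 averaged 823 ± 797 CPM in RasV12 and 1.69 CPM in T53D4, a spread nearly as wide as the mean. MMP10 had 96 reads in RasV12 and 0 in T53D4, at least 33.5-fold higher. The gelatinase gene MMP2 ran the other way: it fell by 1.52 in RasV12 (edgeR adjusted p = 0.00796) and by 3.57 in MekDD (edgeR adjusted p = 1.13e-04) and rose by 3.17 in AKTmyr (edgeR adjusted p = 1.59e-04), where it averaged 325 ± 128 CPM, with 36.0 CPM in T53D4. PLAU, the urokinase gene and a known PEA3 and AP-1 target, rose by 2.73 in MekDD (edgeR adjusted p = 0.00334). It also rose by 1.73 in RasV12 (edgeR adjusted p = 0.0131), a value added after it was seen. RasV12 and MekDD were not called apart for PLAU (edgeR adjusted p = 0.159). In T53D4 against ARPE19, none of the genes in these 5 lists was called by edgeR, and DESeq2 and the block each called 1 feedback gene and 1 immediate early gene lower.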

How the data were processed

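The authors deposited a table of raw read counts per gene and sample, a table of normalised values and a log-scale table, the last of which was not used here. Per the submitters' processing notes, reads were trimmed with fastp 0.20.0, aligned to hg38 with HISAT2 2.1.0 and counted with featureCounts 1.6.4, and DESeq2 1.28.1 was used. Strand use in counting is not given in the sources used here. The deposited normalised signal values equal the counts divided by 1 factor per library and were used only for that check. The count table also has 7 construct rows, kept out of the main tests.

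Counts were tested in R 4.3.3 with edgeR 4.0.16: TMM factors, filterByExpr with a minimum count of 10, 1 quasi-likelihood fit of all 15 libraries with line as the only factor, 10 pairwise comparisons, and Benjamini-Hochberg adjustment over 13599 genes, with calls under 0.05. CPM per kb used exon lengths of the deposited hg38 annotation. Alternatives were DESeq2 1.42.0, its size factors in edgeR, no filter, only the 2 lines compared, construct rows kept, the replicate number as a block, and each library left out.

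Members, gene lists and tests were chosen with earlier results of these data known. The named genes are the 10 members, up to 3 called genes per list and comparison with the largest change, and the 5 genes most like each PEA3 gene.

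Groups and replicate numbers come from the labels. Deviations from the line mean correlated between same-numbered libraries of 2 lines with r between 0.0017 and 0.790, and with their own number best in 15 of 15 libraries. In 8 of 10 comparisons every r was above 0.1, so the numbers pair these samples, and the blocked value is given where it changes a call. No 2 libraries of a line differed by as little as sampling noise. Intervals and floors of reads cover counting error only.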

Additional observations from a re-analysis of the deposited data

How the results depend on the processing

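Of 600 values of the 10 genes under 6 processing alternatives, 573 kept their call, 22 were newly called, 5 were no longer called and 0 changed to the other direction. Of 1500 values with 1 library left out, 1447 kept their call, 15 were newly called and 38 lost it. Of 40 calls, 30 held under every alternative and with every library left out. The number of members called moved as follows, and the cause was not tested. In MekDD against T53D4 it was 4 in DESeq2 and 4 with the replicate block, beside 2. In AKTmyr against T53D4 it was 2 with only these lines fitted, beside 5. In RasV12 against MekDD it was 4 in DESeq2 and 4 with the block, beside 2, and in MekDD against ARPE19 it was 4 in DESeq2 and 5 with the block, beside 2.

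With 1 library left out, the number called ranged from 5 to 6 in RasV12 against T53D4, 1 to 3 in MekDD against T53D4, 2 to 5 in AKTmyr against T53D4, 0 to 0 in T53D4 against ARPE19, 0 to 3 in RasV12 against MekDD, 7 to 7 in RasV12 against AKTmyr, 5 to 6 in MekDD against AKTmyr, 6 to 6 in RasV12 against ARPE19, 0 to 3 in MekDD against ARPE19 and 4 to 5 in AKTmyr against ARPE19.

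In RasV12 against AKTmyr and RasV12 against ARPE19 the lowest correlation between same-numbered libraries was 0.0017 and 0.0201, both for replicate 3. Replicates 1 and 2 had r of 0.274 and 0.456 against AKTmyr and 0.224 and 0.418 against ARPE19. There a pairing of the replicate 3 libraries is not shown. Replicate 3 of RasV12 did correlate with replicate 3 of MekDD (r 0.475) and of T53D4 (r 0.186). The block left 7 and 6 members called, as without it. It changed no other member's call than those given above.

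Over all genes, MekDD against T53D4 had 694 calls, 1127 in DESeq2 and 1589 with the block, AKTmyr against T53D4 had 2738, 4738 with the block and 1445 with only these lines, and T53D4 against ARPE19 had 21, 192 in DESeq2, 232 with the block and 2 with only these lines. RasV12 against MekDD had 2108 and 3588 with the block, MekDD against AKTmyr 3560 and 5481, MekDD against ARPE19 1479 and 3064, and AKTmyr against ARPE19 2290 and 4027, with 1364 for only these lines. ETV4 in AKTmyr, with 90 reads over its libraries, is the member value most limited by depth.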
